A study of Mus musculus with 10 samples.

Results

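The lysosomal cathepsins are the proteases that degrade proteins inside lysosomes and endosomes. The 10 genes described here, Ctsa, Ctsb, Ctsc, Ctsd, Ctse, Ctsh, Ctsl, Ctss, Ctsw and Ctsz, were chosen by symbol from the 33393 genes with a transcript in the deposited tables, and the values of each gene's transcripts were summed. RNA-seq libraries were made from CD34- hematopoietic stem cells (HSCs), sorted from the bone marrow of 8-week-old C57BL/6 mice as lineage marker-negative, Sca-1+, c-Kit+, CD34- and Flt3- cells. Control mice were Reg1flox/flox and carried the floxed Regnase-1 gene (Zc3h12a) without Cre. Reg1Δ/Δ mice were Vav1-iCre; Reg1flox/flox, so that Cre driven by Vav1 elements deletes the gene throughout the blood lineages and not in HSCs alone. The library titles fall into 2 styles, treated as 2 library sets: set 1 holds 3 control and 3 Reg1Δ/Δ libraries, and set 2 holds 2 and 2. The comparison asks which cathepsin transcripts differ between the genotypes.

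Cathepsins are made as inactive precursors, carried to lysosomes largely by mannose 6-phosphate receptors, and cut to their active form in the acidic lumen. Most are papain-like cysteine proteases (here Ctsb, Ctsc, Ctsh, Ctsl, Ctss, Ctsw and Ctsz), Ctsd and Ctse are aspartic proteases, and Ctsa is a serine carboxypeptidase. Some, such as Ctsd, are found in nearly every cell. Others are known from particular blood cells: Ctss from antigen-presenting cells, Ctsc from cells with protease-filled granules, Ctsw from cytotoxic T cells and natural killer cells, and Ctse from erythroid and lymphoid cells as well as the stomach. Cystatins and some serpins inhibit cathepsins, and the transcription factor Tfeb drives many lysosomal genes.

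Before the cathepsins, the labels were checked against the targeted gene. Levels are in TPM, a transcript level per length that is scaled to the same total in each library. Zc3h12a was at 1.83, 1.28 and 1.603 TPM in the set 1 controls and at 3.54, 2.08 and 2.51 TPM in the set 1 libraries labelled Reg1Δ/Δ. The set 2 controls held 1.48 and 6.07 TPM against 10.3 and 8.52 TPM. The gene total was thus higher, not lower, in every library labelled Reg1Δ/Δ than in the controls of its set (log2 difference 0.83, SE 0.28, limma adjusted p = 0.0314). Which exons were deleted is not given in the sources used here, and the study's own check of the deletion, by qRT-PCR in sorted cells, is not used here, so a gene total checks the labels only in part, and directions below are given by label. The sets also differed from each other: 64790 to 72706 transcripts were above 0 in set 1 and 38071 to 44203 in set 2, and protein-coding transcripts held 46.2% to 49.1% of the TPM in set 1 and 73.5% to 81.1% in set 2. Each comparison was therefore made within sets. Within each set the libraries labelled Reg1Δ/Δ had fewer genes at 1 TPM or more, without overlap: 12006 to 12048 against 14276 to 14307 in set 1 and 11256 to 11398 against 13366 to 13717 in set 2. Transcripts above 0 were also fewer in set 1 (64790 to 65989 against 71084 to 72706), while in set 2 the ranges overlapped. The lower number of detected genes moves with the label and so with the differences below, and its part in them was not tested.

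The cathepsins did not move together. Ctss, Ctsh and Ctsw were close to lost in the libraries labelled Reg1Δ/Δ, Ctsc fell to well under its control level, and Ctsa and Ctsb fell slightly. Ctse rose and became the most abundant cathepsin, Ctsz rose slightly, and Ctsd and Ctsl did not pass the test. Of the 10 genes, all of which passed the filter on low values, 6 were lower and 2 higher at an adjusted p under 0.05 (limma on log2(TPM + 1) with library set as covariate, Benjamini-Hochberg over 12874 genes). Across all genes tested, 37.9% were lower and 15% were higher (52.9% in all), so calls were common in this comparison. The median log2 difference was -0.47 over the 10 cathepsins and -0.25 over all genes tested. The counts depended on the scaling: with median-of-ratios scaling 4 cathepsins were lower and 3 higher, Ctsa and Ctsb losing their calls and Ctsd being called higher, while quantile normalization gave 6 and 2.

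**Figure D1:**
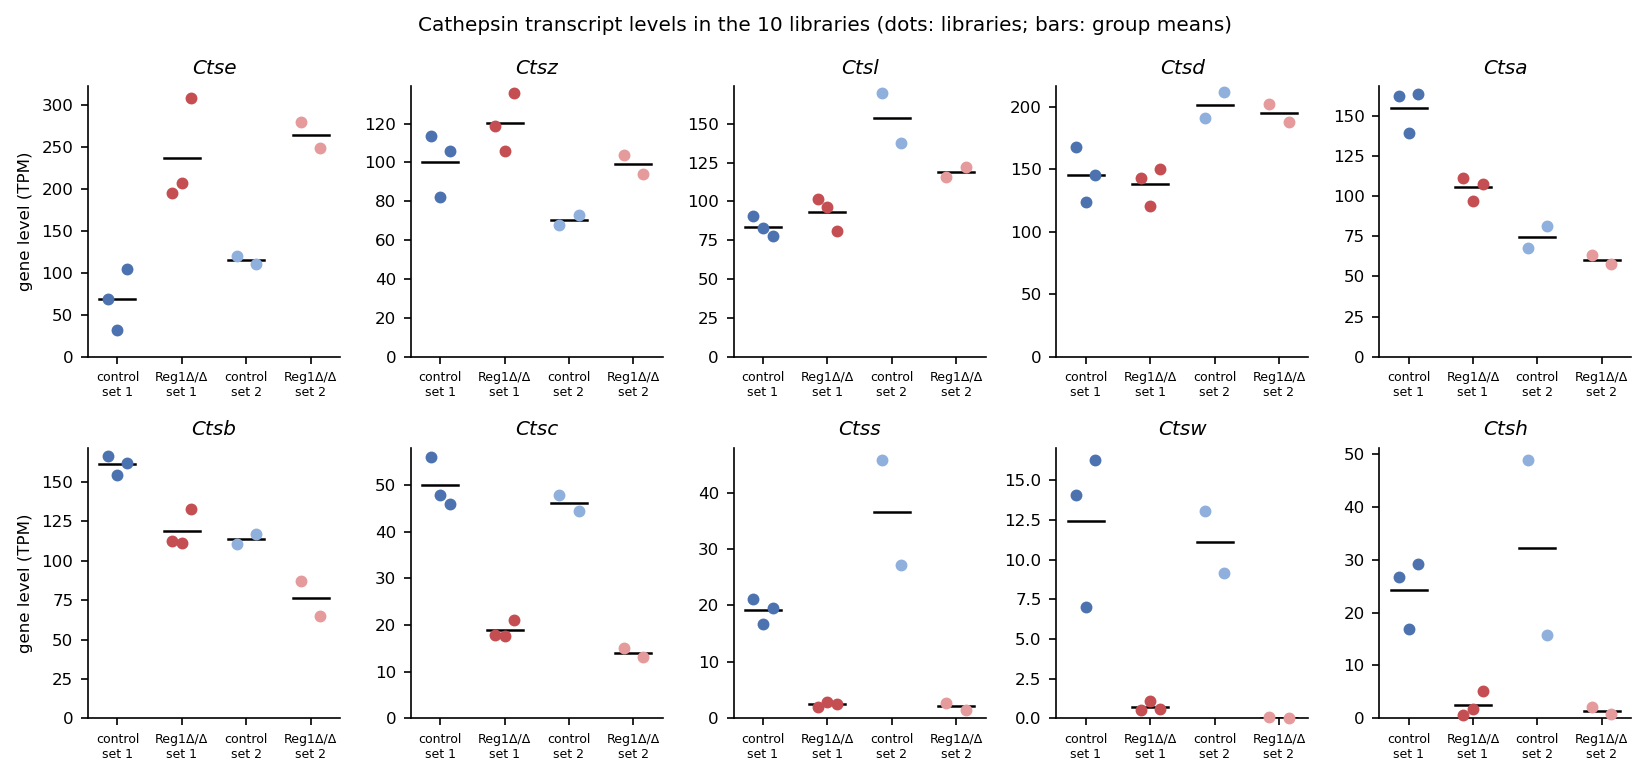
Gene level in TPM (vertical axes, linear and starting at 0) of each cathepsin in the 10 libraries, by label and library set. Dots are libraries and bars group means; Ctse is higher in all 5 libraries labelled Reg1Δ/Δ than in the controls of their set, while Ctsc, Ctss, Ctsw and Ctsh are lower in all 5.

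Ctss, the cysteine protease that trims the invariant chain from major histocompatibility complex (MHC) class II molecules in antigen-presenting cells, was at 21.2, 16.8 and 19.6 TPM in the set 1 controls and at 45.8 and 27.2 TPM in the set 2 controls. In the libraries labelled Reg1Δ/Δ it was at 1.96, 2.86 and 2.60 TPM in set 1 and at 2.68 and 1.56 TPM in set 2. No library of one label reached into the range of the other. The mean was 7.75-fold lower in set 1 and 17.2-fold lower in set 2, and the log2 difference over both sets was -2.95 (SE 0.23, limma adjusted p = 7.04e-06).

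Ctsh, a cysteine protease that acts mainly as an aminopeptidase, was at 26.8, 16.98 and 29.2 TPM in the set 1 controls and at 48.8 and 15.7 TPM in the set 2 controls, so that the set 2 controls lay far apart. It was at 0.571, 1.73 and 5.08 TPM and at 2.11 and 0.746 TPM in the libraries labelled Reg1Δ/Δ. Even the highest of these, 5.08 TPM, stayed under the lowest control, 15.7 TPM. Its log2 difference was -3.29 (SE 0.42, limma adjusted p = 1.42e-04), and in set 2 alone the adjusted p was 0.0773.

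Ctsw, whose product is found in natural killer cells and CD8+ T cells, was the least abundant cathepsin in every group. It was at 14.1, 7.02 and 16.2 TPM in the set 1 controls and at 13.0 and 9.12 TPM in the set 2 controls. In the libraries labelled Reg1Δ/Δ it was at 0.4995, 1.10 and 0.578 TPM in set 1, and in set 2 it was at 0.0696 TPM in one library and listed at 0 in the other. The log2 difference was -3.15 (SE 0.24, limma adjusted p = 4.76e-06); near 0 this value depends on the pseudocount, and with 0.1 in place of 1 it was -4.91.

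Ctsc, dipeptidyl peptidase I, removes the activation dipeptide from the granule serine proteases of neutrophils, mast cells and cytotoxic lymphocytes. Its control libraries lay close together, at 56.0, 47.9 and 46.0 TPM in set 1 and at 47.8 and 44.6 TPM in set 2. The libraries labelled Reg1Δ/Δ lay just as close together at a lower level, at 17.8, 17.7 and 20.999 TPM and at 15.1 and 13.2 TPM. The mean was 2.65-fold lower in set 1 and 3.27-fold lower in set 2 (log2 difference -1.47, SE 0.11, limma adjusted p = 4.95e-06).

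RefSeq promoter windows (GRCm38.p6, 250 bases before to 50 after the annotated start) were at hand for 6 of the cathepsins, Ctsa, Ctsc, Ctsd, Ctsl, Ctss and Ctsz. They were searched on both strands for GAGGAAGT, a sequence bound by Pu.1, the ETS factor of myeloid and B-lineage cells. The match was found in the windows of Ctss and Ctsc, the most strongly lowered of the 6, and in 3.20% of all 32851 windows. Both are shown because these genes fell together; capitals mark GAGGAAGT read on the opposite strand, and in Ctss also a match to an interferon-stimulated response element-like motif (GAAA, any 2 bases, GAAA), which was added to the search after the sequence had been read and is in 3.44% of windows.
Ctss promoter, chr3:95526536-95526835, plus strand: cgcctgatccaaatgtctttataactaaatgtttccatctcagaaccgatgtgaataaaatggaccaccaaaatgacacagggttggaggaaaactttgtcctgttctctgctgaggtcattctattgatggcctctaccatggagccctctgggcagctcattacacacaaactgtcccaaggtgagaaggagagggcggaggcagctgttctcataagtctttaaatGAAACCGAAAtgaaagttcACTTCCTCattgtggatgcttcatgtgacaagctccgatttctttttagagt
Ctsc promoter, chr7:88277835-88278134, plus strand: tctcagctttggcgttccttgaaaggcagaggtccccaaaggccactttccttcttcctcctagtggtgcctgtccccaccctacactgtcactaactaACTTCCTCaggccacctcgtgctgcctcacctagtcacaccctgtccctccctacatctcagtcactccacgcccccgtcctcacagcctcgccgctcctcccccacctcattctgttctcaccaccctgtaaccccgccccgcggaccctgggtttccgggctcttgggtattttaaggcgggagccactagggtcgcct
The Pu.1 match of Ctss begins 2 bases before the annotated start, and that of Ctsc 151 bases before it. A match describes the letters of the window and is not a measurement of binding.

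Ctsa, the carboxypeptidase that also protects β-galactosidase (Glb1) and neuraminidase 1 (Neu1) in the lysosome, was at 162, 139 and 163 TPM in the set 1 controls and at 111, 97.0 and 108 TPM in the set 1 libraries labelled Reg1Δ/Δ. The set 2 values were 67.8 and 81.1 TPM against 63.5 and 57.5 TPM. The labels did not overlap in either set, but the step was small, with a log2 difference of -0.45 (SE 0.11, limma adjusted p = 0.00679). Measured against the median of all genes it was -0.19. With coding transcripts alone, rescaled to the same sum, the log2 difference was -0.29, only just under the threshold (limma adjusted p = 0.0489).

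Ctsb, a cysteine endopeptidase that also removes dipeptides from the carboxyl end, was at 167, 155 and 162 TPM in the set 1 controls and at 112, 111 and 133 TPM in the set 1 libraries labelled Reg1Δ/Δ. Its level in set 2 was 111 and 117 TPM in the controls and 87.3 and 65.1 TPM in the others. Again the labels did not overlap within a set, with a log2 difference of -0.50 (SE 0.11, limma adjusted p = 0.00402). With median-of-ratios scaling the differences of Ctsa and Ctsb were -0.10 and -0.15 on the log2 scale, with limma adjusted p = 0.383 and 0.221.

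Ctse, an aspartic protease of endosomes, was at 69.4, 31.8 and 104 TPM in the set 1 controls and at 119.96 and 111 TPM in the set 2 controls. It was at 196, 207 and 309 TPM in the set 1 libraries labelled Reg1Δ/Δ and at 280.3 and 249 TPM in set 2. Every one of these 5 libraries exceeded the highest control of either set. The mean was 3.47-fold higher in set 1 and 2.29-fold higher in set 2, with a log2 difference of 1.62 (SE 0.30, limma adjusted p = 0.00155).

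Ctsz, a carboxypeptidase that takes single residues from the end of its substrates, was at 113, 82.2 and 106 TPM in the set 1 controls and at 119, 106 and 136 TPM in the set 1 libraries labelled Reg1Δ/Δ. These ranges overlapped, with 113 TPM in a control against 106 TPM in a library labelled Reg1Δ/Δ. In set 2 it was at 67.6 and 72.8 TPM against 104 and 94.3 TPM, without overlap. The log2 difference was 0.35 (SE 0.12, limma adjusted p = 0.0370), and the call was lost in each set alone (limma adjusted p = 0.245 in set 1 and 0.0701 in set 2). It was also lost when replicate 2 of the set 1 controls, replicate 1 or 3 of the set 1 libraries labelled Reg1Δ/Δ or any of the 4 set 2 libraries was left out (limma adjusted p up to 0.0890).

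Ctsd, the main aspartic protease of lysosomes, was at 168, 124 and 145 TPM in the set 1 controls and at 143, 121 and 149.7 TPM in the set 1 libraries labelled Reg1Δ/Δ. In set 2 it was at 191 and 212 TPM against 202 and 188 TPM. The labels overlapped in both sets, and the 95% confidence interval of the log2 difference ran from -0.32 to 0.19 (limma adjusted p = 0.671). With median-of-ratios scaling the difference was 0.29 with an adjusted p of 0.0275 by limma, so neither a direction nor its absence is given by these values.

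Ctsl, a cysteine endopeptidase, was at 90.4, 82.7 and 77.9 TPM in the set 1 controls and at 102, 96.7 and 80.8 TPM in the set 1 libraries labelled Reg1Δ/Δ, ranges that overlapped. In set 2 it was at 169.7 and 138 TPM in the controls against 116 and 122 TPM. The set 1 difference was thus 0.15 and the set 2 difference -0.36 on the log2 scale, and over both sets the 95% confidence interval ran from -0.36 to 0.25 (limma adjusted p = 0.753). The difference between the sets had an adjusted p of 0.415 (limma interaction term, unadjusted p = 0.0543).

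No cathepsin passed the test of a different effect in the 2 sets at an adjusted p under 0.05, a call made for 57 of 12874 genes (0.443%). Ctss came nearest, with an interaction of -1.02 on the log2 scale (SE 0.36, limma unadjusted p = 0.0205, adjusted p = 0.302). In all, 6 cathepsins (Ctsa, Ctsb, Ctsc, Ctsh, Ctss and Ctsw) were below every control of their set in both sets, as were 31.4% of all genes tested, and 1 (Ctse) was above every control in both sets, as were 12.7%. For these 7 genes the exact two-sided permutation test within sets gave the smallest p that its 120 assignments allow, 0.0167.

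**Figure D2:**
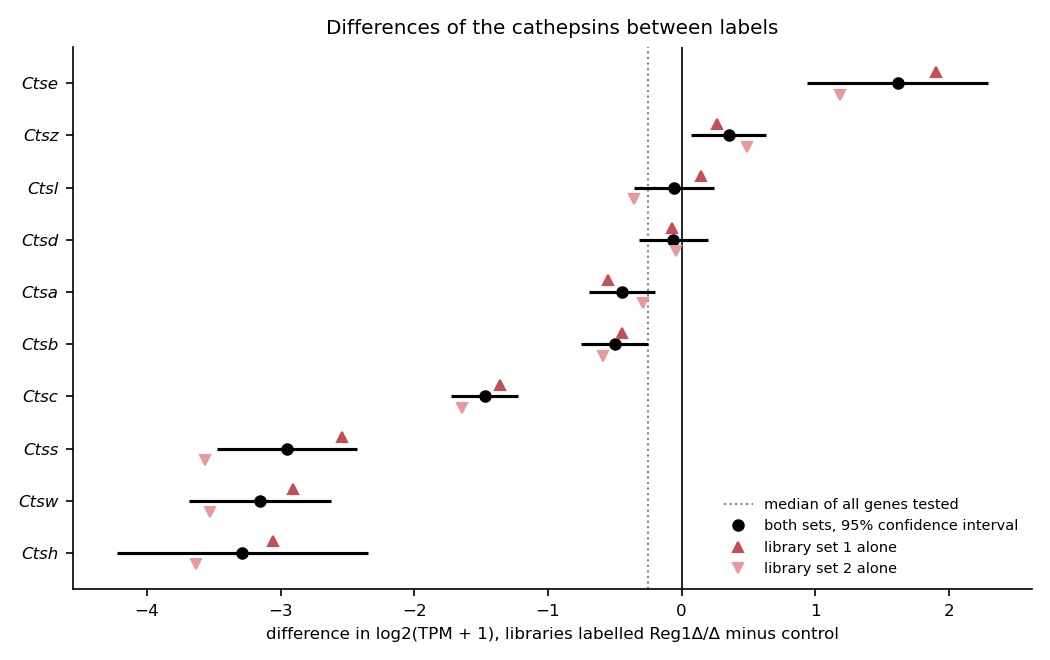
Difference in log2(TPM + 1) between the libraries labelled Reg1Δ/Δ and the controls (horizontal axis) for each cathepsin; black dots are the fit over both sets with its 95% confidence interval, triangles the sets alone, and the dotted line the median of all genes tested, -0.25. Ctsh, Ctsw and Ctss lie between -3.29 and -2.95, Ctse at 1.62, and the intervals of Ctsd and Ctsl include 0.

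The summed level of the 10 cathepsins hid this exchange. The sum was 703 to 888 TPM in the set 1 controls and 761 to 945 TPM in the set 1 libraries labelled Reg1Δ/Δ, and 828 to 882 TPM against 791 to 873 TPM in set 2, so that the ranges overlapped in both sets. Without Ctse the sum was 671 to 819 TPM against 555 to 636 TPM in set 1 and 717 to 762 TPM against 542 to 593 TPM in set 2, without overlap. Ctse made up 4.52% to 13.6% of the cathepsin TPM in the controls and 24.4% to 32.7% in the libraries labelled Reg1Δ/Δ. Ctss, Ctsh and Ctsw together made up 5.81% to 12.2% in the controls and 0.291% to 0.874% in the others.

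**Figure D3:**
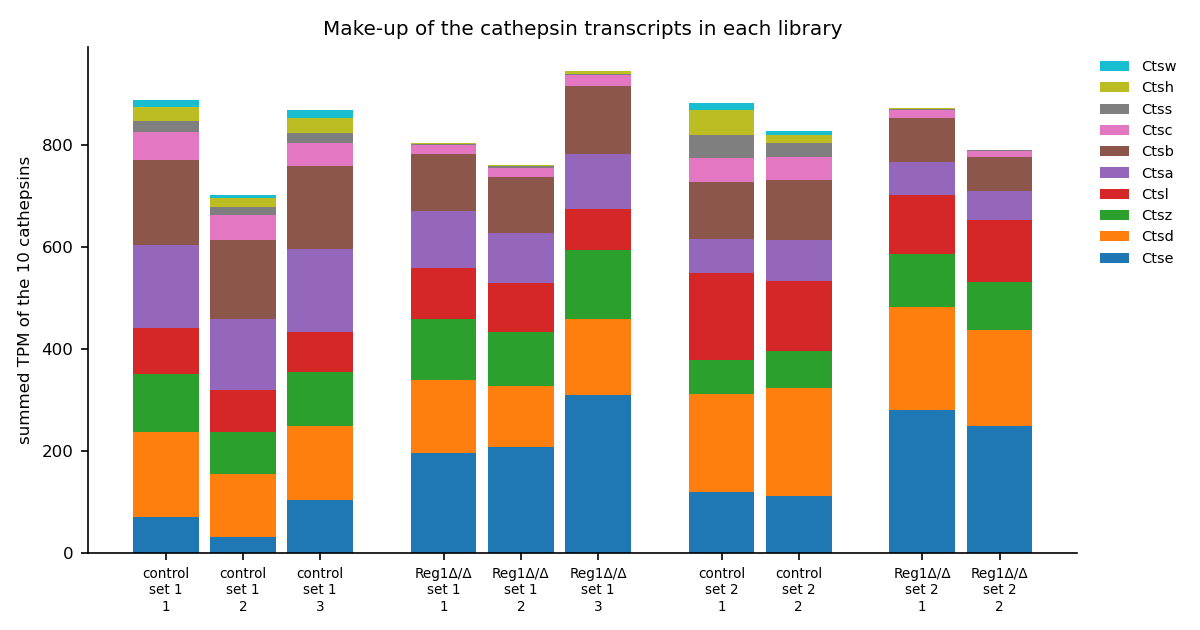
Summed TPM of the 10 cathepsins (vertical axis, from 0) in each library, each bar divided by gene. Ctse, at the base of each bar, takes 24.4% to 32.7% of the bar in the libraries labelled Reg1Δ/Δ, where Ctss, Ctsh and Ctsw, at the top, are hardly visible.

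TPM is a level per length, so the genes can be ranked within a group. In the set 1 controls Ctsb (161 ± 6.14 TPM, SD, n = 3), Ctsa (155 ± 13.7) and Ctsd (146 ± 22.2) led and did not differ from each other beyond their spread. Ctsz (100.5 ± 16.3), Ctsl (83.7 ± 6.29) and Ctse (68.4 ± 36.2) followed with overlapping ranges, then Ctsc (49.9 ± 5.29), Ctsh (24.3 ± 6.48), Ctss (19.2 ± 2.22) and Ctsw (12.5 ± 4.82). These are gene totals, of which coding transcripts held a mean of 21.7% for Ctsb and 41.1% for Ctsa. In coding transcripts alone the order differed, with means of 145 TPM for Ctsd, 100.5 for Ctsz and 67.8 for Ctse. Ctsa followed with 63.8, Ctsl with 59.4, Ctsc with 49.5 and Ctsb with 35.0 TPM. In the set 2 controls Ctsd led with 201 ± 14.8 TPM (SD, n = 2), followed by Ctsl with 154 ± 22.8 TPM, while Ctsa had 74.5 ± 9.42 TPM (61.0 TPM in coding transcripts alone). In both sets Ctse was first in the libraries labelled Reg1Δ/Δ, with 237 ± 62.4 TPM (SD, n = 3) in set 1 and 265 ± 22.4 TPM (SD, n = 2) in set 2, followed by Ctsd with 138 ± 15.3 and 195 ± 10.4 TPM. By gene total, Ctsc, Ctsh, Ctss and Ctsw held the last 4 places in each of the 4 groups.

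The deposited values are estimates per transcript, and their split within a gene differed between genes and sets. For Ctsb, an 801-base transcript annotated as a retained intron (ENSMUST00000225540) held more of the TPM than the 10-exon coding transcript (ENSMUST00000006235) in 9 of the 10 libraries, the exception being replicate 2 of the set 2 controls. The short transcript was at 129.6, 120.2 and 127 TPM in the set 1 controls, at 59.5 and 54.7 TPM in the set 2 controls, at 89.2, 88.4 and 107 TPM in the set 1 libraries labelled Reg1Δ/Δ, and at 50.5 and 32.7 TPM in set 2. It held 77.7% to 80.9% of the gene's TPM in set 1 and 46.9% to 57.9% in set 2, with no difference between labels that passed the exact two-sided permutation test (p = 0.217). It shares exons with the coding transcript and begins with the last 90 bases of intron 3, which are the part that tells the transcripts apart and are shown for that reason.
Ctsb, part of intron 3, GRCm38 chr14:63135518-63135607, plus strand: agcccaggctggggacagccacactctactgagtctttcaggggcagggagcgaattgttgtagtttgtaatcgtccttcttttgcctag
The coding transcript alone was also lower, at 36.7, 34.1 and 34.0 TPM in the set 1 controls against 22.9, 22.5 and 25.3 TPM, and at 51.5 and 62.0 TPM in the set 2 controls against 36.7 and 32.4 TPM. With coding transcripts alone, rescaled to the same sum, the log2 difference of Ctsb was -0.64 (limma adjusted p = 2.08e-04).

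For Ctse, coding transcripts held at least 98.9% of the TPM in every library, but in set 1 part of it was assigned to a transcript of 9 exons (ENSMUST00000112411) that lacks exon 9 of the 10-exon transcript (ENSMUST00000073350). The 99 bases of this exon are coding, and they are shown as the stretch by which the coding sequences of the 2 transcripts differ.
Ctse exon 9, GRCm38 chr1:131672445-131672543, plus strand: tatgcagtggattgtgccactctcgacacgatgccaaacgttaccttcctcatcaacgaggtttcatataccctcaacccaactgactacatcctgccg
The transcript without exon 9 was at 4.202, 0.116 and 19.3 TPM in the set 1 controls and at 61.0, 76.0 and 92.7 TPM in the set 1 libraries labelled Reg1Δ/Δ. Set 2 had it listed at 0 and at 4.11 TPM in the controls and at 0.689 TPM and at 0 in the others. Its share of the gene's TPM was 0.366% to 18.5% against 30.0% to 36.8% in set 1 and did not exceed 3.69% in set 2. The difference in share had p = 0.0833 in the exact two-sided permutation test over both sets, and these transcripts were chosen after their values had been seen. The 10-exon transcript alone was also higher in both sets, at 64.5, 31.4 and 84.0 TPM against 133, 128 and 214 TPM in set 1 and at 119.96 and 107 TPM against 279.7 and 248 TPM in set 2.

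**Figure D4:**
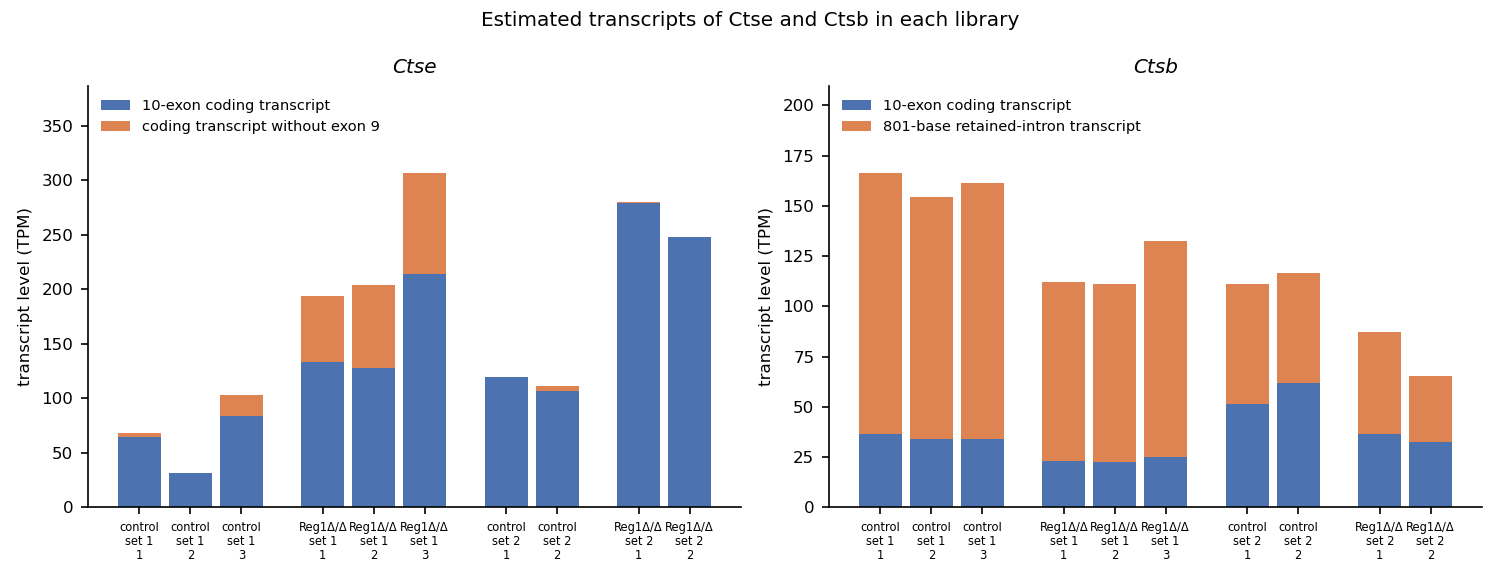
Estimated level in TPM (vertical axes, from 0) of the 2 most abundant transcripts of Ctse and of Ctsb in each library, stacked. The Ctse transcript without exon 9 is at 61.0 to 92.7 TPM in the set 1 libraries labelled Reg1Δ/Δ and near 0 in set 2, while the 801-base Ctsb transcript is a large part of the bar in all 10 libraries.

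Ctsd was split by set and not by label: a shorter coding transcript (ENSMUST00000066401) held 60.8% to 70.1% of its TPM in set 1 and 0% to 4.06% in set 2, in both labels alike. For Ctsh a transcript annotated for nonsense-mediated decay (ENSMUST00000123320) held 36.2% to 45.1% of the TPM in the set 1 controls. The coding transcripts of Ctsh were at 7.41, 6.45 and 9.86 TPM in the set 1 controls against 0.273, 0.483 and 1.38 TPM, and at 14.9 and 12.3 TPM against 2.02 and 0.746 TPM in set 2. The fall of Ctsh was thus present in its coding transcripts as well. Of the 7 cathepsins with both coding and other transcripts, none had a coding share that differed between labels at p under 0.05 in the exact two-sided permutation test, the smallest being that of Ctsc (p = 0.05, unadjusted).

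Some of the genes overlap others in the annotation (GENCODE M21, GRCm38), and without strand their reads cannot be told apart there. Ctsw (chr19:5465043-5468507, minus strand) overlaps Fibp, Ctsa (chr2:164832873-164841032, plus strand) overlaps Neurl2 and Pltp, Ctsb (chr14:63122462-63145923, plus strand) overlaps Fdft1, and Ctsz (chr2:174427493-174439039, minus strand) overlaps Nelfcd, all on the opposite strand. Ctsd (chr7:142375911-142388038, minus strand) overlaps a gene model, Gm49369, on its own strand. Ctsc (chr7:88278085-88310888), Ctsl (chr13:64359337-64370890) and Ctss (chr3:95526786-95556403) overlap a long non-coding RNA or pseudogenes. Ctse (chr1:131638306-131675505) and Ctsh (chr9:90054152-90076089) overlap no other gene.

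The cathepsins outside the chosen 10 were measured for comparison, and 2 of the 3 were lower. Ctsf, a papain-like cysteine protease, was at 19.4 to 23.6 TPM in the set 1 controls against 1.26 to 1.94 TPM, and at 10.4 to 17.9 TPM against 0.849 to 1.06 TPM in set 2 (log2 difference -3.02, SE 0.15, limma adjusted p = 6.19e-07), a fall of the size seen for Ctss, Ctsh and Ctsw. Ctso, another cysteine protease, fell by 1.48 on the log2 scale (limma adjusted p = 9.83e-06), close to the fall of Ctsc. Ctsg, a serine protease of neutrophil granules that Ctsc activates, was at 179.6, 139 and 171 TPM in the set 1 controls against 32.5, 6.89 and 100.6 TPM, but at 103 and 77.1 TPM against 112 and 90.005 TPM in set 2, and was not called (limma adjusted p = 0.113). Ctsk was not analysed here.

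The inhibitors of cathepsins moved in both directions, with 4 of 8 tested genes lower and 2 higher, shares near the 37.9% lower and 15% higher among all genes tested, so the count is no result about the inhibitors as a group. Cst3 (cystatin C), the secreted inhibitor of cysteine cathepsins, was between 217 and 288 TPM in all controls and between 119 and 146 TPM in all libraries labelled Reg1Δ/Δ (log2 difference -0.94, SE 0.11, limma adjusted p = 8.66e-05). Cstb (stefin B), the cytosolic inhibitor, fell slightly (-0.31, limma adjusted p = 0.0435), a difference that turned to 0.04 with median-of-ratios scaling. Its call was lost without replicate 1 or 3 of the set 1 controls, replicate 2 or 3 of the set 1 libraries labelled Reg1Δ/Δ or any library of set 2 (limma adjusted p up to 0.0968). Cst7 (cystatin F), which inhibits Ctsc inside lysosomes, was at -0.28 (limma adjusted p = 0.243). Among the serpins, Serpinb1a, an inhibitor of neutrophil serine proteases, fell by 2.27 and Serpinb6a fell by 1.78 on the log2 scale (limma adjusted p = 4.53e-06 and 4.01e-05), while Serpinb6b was at -0.07 (limma adjusted p = 0.741). Serpina3f and Serpina3g, the latter an inhibitor of cathepsins, rose by 1.45 and 0.72 (limma adjusted p = 6.66e-04 and 0.0144). The stefin A genes that could be analysed did not pass the filter on low values.

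Tfeb, the regulator of lysosomal genes, was at 8.62, 14.98 and 15.2 TPM in the set 1 controls and at 2.28, 1.37 and 1.92 TPM in the set 1 libraries labelled Reg1Δ/Δ. The set 2 levels were 15.3 and 12.2 TPM against 1.49 and 2.85 TPM. The labels lay far apart in both sets (log2 difference -2.25, SE 0.19, limma adjusted p = 1.05e-05). Its relative Tfec was also lower (log2 difference -1.90), as was Flcn, which acts on Tfeb and Tfe3 through the Rag GTPases (-0.54) (limma adjusted p = 6.00e-04 and 0.0126), and in all 4 of the 12 regulators tested were lower and none higher, against 2 lower and 6 higher under median-of-ratios scaling and 2 and 3 under quantile normalization.

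Tfeb binds the CLEAR element, whose core TCACGTGA contains the E-box CACGTG. Among the 6 cathepsins with a promoter window, the core was in those of Ctsd and Ctsa, and in 0.974% of all windows. The E-box alone was in those of Ctsa, Ctsd and Ctsl, and in 7.15% of all windows. These cathepsins are ones with small or uncalled differences between labels (-0.45, -0.06 and -0.05 on the log2 scale), and the stretches around the cores, in capitals, are shown beside the fall of Tfeb.
Ctsd, chr7:142387908-142387937, minus strand: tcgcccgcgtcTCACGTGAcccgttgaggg
Ctsa, chr2:164833749-164833795, plus strand: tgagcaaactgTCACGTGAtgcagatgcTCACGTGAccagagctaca
The core of Ctsd begins 99 bases before the annotated start, and those of Ctsa 13 bases before and 4 after it. The core was not found in the windows of Ctsc, Ctsl, Ctss and Ctsz.

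The other lysosomal genes were described as lists. Their counts stand against the same 37.9% lower and 15% higher among all genes tested. Those of the regulators, sorting genes, membrane genes and V-ATPase subunits lie near the share that was lower. They are no result about these lists. Of 40 lysosomal hydrolases tested, 25 were lower and none higher, with a median log2 difference of -0.52. The log2 difference was -2.29 for Gm2a, the GM2 ganglioside activator, and -1.82 for Pla2g15, a phospholipase (limma adjusted p = 3.61e-07 and 5.71e-04). The hydrolase count depended on the scaling, with 15 lower and 7 higher under median-of-ratios scaling and 12 and 5 under quantile normalization, and without single libraries 20 to 25 were lower and 0 to 1 higher. Of 16 lysosomal membrane genes 8 were lower and 1 higher (6 and 4 under median-of-ratios scaling, 5 and 3 under quantile normalization), with a median of -0.39 and -2.63 for Cd63, a tetraspanin, -2.56 for Laptm4b and -2.16 for Cd68, a macrophage sialomucin (limma adjusted p = 4.39e-07, 2.65e-05 and 4.15e-04).

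Of the 11 genes that sort or activate lysosomal enzymes, 5 were lower and 1 higher, with a median of -0.40, against 3 and 3 under median-of-ratios scaling and 2 and 3 under quantile normalization. The higher one lost its call without replicate 3 of set 1 or replicate 1 of set 2 of the libraries labelled Reg1Δ/Δ. The log2 difference was -2.80 for Lgmn, the legumain that cuts cathepsin precursors, -1.98 for Sort1, the sorting receptor sortilin, and -0.91 for Tmem106b (limma adjusted p = 5.67e-04, 3.43e-06 and 0.00224). The subunits of the V-ATPase, the proton pump that acidifies lysosomes, had a median of -0.05, with 5 of 17 lower and 1 higher, and turned to none lower and 7 higher under median-of-ratios scaling. When single libraries were left out, 2 to 7 subunits were lower and 0 to 2 higher, the fewest lower without replicate 1 of the set 1 controls and the most without replicate 1 of the set 2 libraries labelled Reg1Δ/Δ. The lowest of them, Atp6v0b, Atp6v1d and Atp6v1g1, were at -0.50, -0.46 and -0.40 (limma adjusted p = 0.0233, 0.00830 and 0.00736).

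Ctss acts on MHC class II molecules, and of the 11 genes of class II antigen processing tested, 6 were higher, 3 were lower and 2 were not called (median 0.65). H2-Eb1 rose by 3.48, H2-Aa by 2.45 and H2-Ab1 by 2.35 on the log2 scale (limma adjusted p = 9.75e-05, 2.96e-04 and 5.72e-04). H2-Eb1, a class II β chain, was at 4.47 to 20.97 TPM in the set 1 controls against 62.5 to 199 TPM, and at 14.0 to 25.6 TPM against 224 to 244 TPM in set 2. Of the 6 granule proteases that Ctsc activates, 4 were lower and none higher (3 lower under median-of-ratios scaling and 1 under quantile normalization, median -1.43), among them Prtn3 (-1.77), Gzmb (-1.64) and Prss57 (-1.24), with limma adjusted p = 0.0124, 8.79e-04 and 0.0107. In set 1 alone all 6 were lower by limma, whereas in set 2 alone limma called 0 of them (2 lower at an unadjusted p under 0.05) and the summed levels of the 11 genes on the list overlapped, at 481 to 540 TPM in the controls against 395 to 491 TPM.

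**Figure D5:**
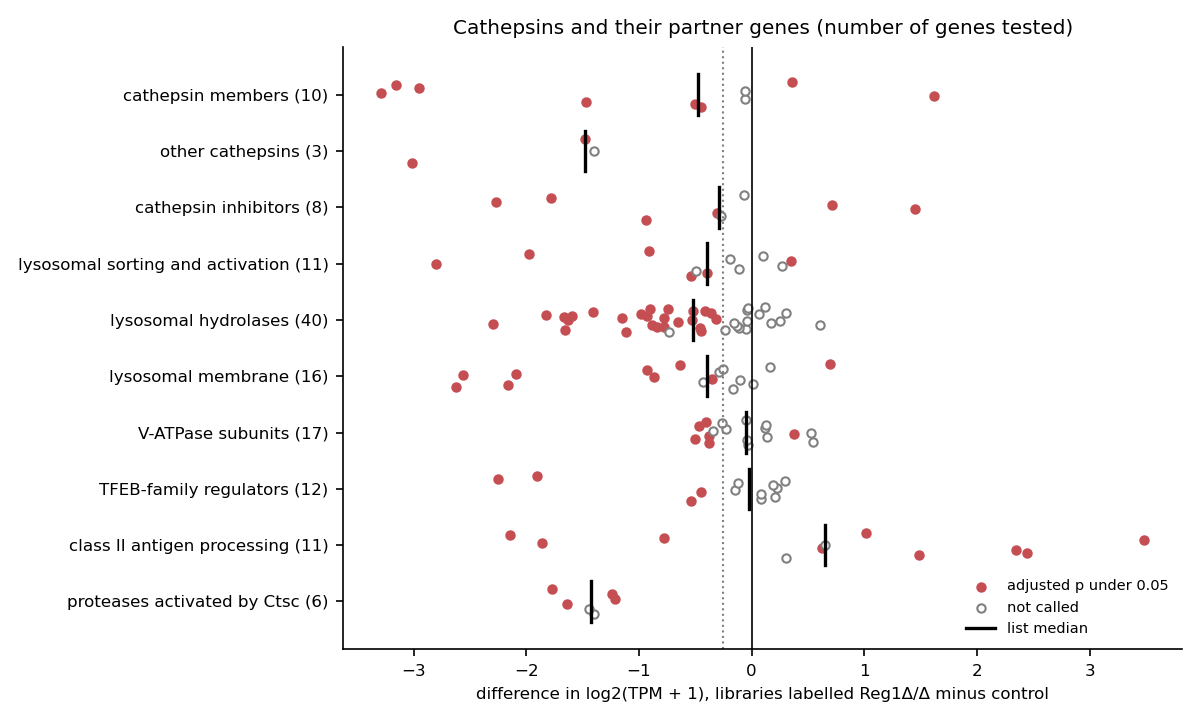
Difference in log2(TPM + 1) between labels (horizontal axis) for the tested genes of each pathway list, one dot a gene, filled where the limma adjusted p is under 0.05; black bars are list medians and the dotted line is the median of all genes tested, -0.25. Among these pathway lists the class II list has the highest median, 0.65, and the other cathepsins and the proteases activated by Ctsc the lowest, -1.48 and -1.43; cell type marker lists are not plotted.

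Markers of several blood cell types moved with the label, and in bulk RNA fewer cells of a type and less RNA per cell cannot be told apart. The counts of markers stand beside the 37.9% lower and 15% higher among all genes tested. They were not taken under other scalings. The sort took lineage marker-negative cells, and the marker sums are levels in the cells that passed it. How far this gate removed mature cells of these types was not tested. The 12 monocyte and macrophage markers summed to 505 to 690.3 TPM in the set 1 controls against 53.4 to 203 TPM, and to 905 to 1070.2 TPM against 96.3 to 121 TPM in set 2, with 8 of 9 tested lower. Adgre1, Fcgr1 and Cd14 did not pass the filter on low values: they were under 0.5 TPM in all libraries labelled Reg1Δ/Δ, and in the set 1 controls they were also at 0.584 TPM or less. In the set 2 controls Cd14 was at 1.90 to 16.4 TPM, Adgre1 at 1.37 to 2.41 TPM and Fcgr1 at 0.371 to 1.14 TPM, each above both set 2 libraries labelled Reg1Δ/Δ. Neutrophil markers summed to 3086 to 5502 TPM against 313 to 969 TPM in set 1 and to 11803 to 13721 TPM against 839 to 887 TPM in set 2, with 8 of 10 lower. The 10 B-lineage markers summed to 156 to 1135 TPM against 5.41 to 21.4 TPM in set 1 and to 1149 to 1312 TPM against 2.77 to 8.04 TPM in set 2, with 9 of 9 tested lower. Pax5, which did not pass the filter, and Ms4a1 were under 0.5 TPM in all libraries labelled Reg1Δ/Δ and at 0.871 to 17.8 and 1.05 to 5.12 TPM in the controls. Ms4a1 passed the filter through the controls alone, so the filter had a part in the B-lineage count. These lists stand beside the falls of Ctss, Ctsh and Ctsc, and their part in the result was not tested.

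T and natural killer cell markers, beside which the fall of Ctsw stands, summed to 262 to 330.4 TPM against 97.3 to 149.7 TPM in set 1 and to 129 TPM in both controls against 40.6 to 50.1 TPM in set 2, and 4 of 4 tested were lower. Of these 4, Il2rb was at 1.32 to 6.07 TPM in the controls and at 0.288 TPM or less in the others. It passed the filter through the controls alone, so the filter had a part in this count. Of the 12 listed, 8 did not pass the filter, so each was under 1 TPM in at least 1 control. Among these, Cd3e, Cd3g, Cd8a, Prf1 and Ncr1 were under 0.5 TPM in all libraries labelled Reg1Δ/Δ, and in the controls none exceeded 2.90 TPM, with Cd8a and Prf1 at 0 in at least 1 control. Of 9 erythroid markers, which stand beside the rise of Ctse, 5 were lower and 3 higher, with a median log2 difference of -2.13. Their sum went the other way in set 1, with 3369 to 6076 TPM in the controls against 8287 to 9091 TPM, and in set 2 it was 6621 to 8344 TPM against 7062 to 7207 TPM, inside the range of the controls. Those lower were the adult globin genes Hbb-bs (-3.19), Hba-a2 (-3.00), Hba-a1 (-2.50) and Hbb-bt (-2.14) and the heme synthesis gene Alas2 (-2.13), and those higher were Car1 (2.24), Klf1 (1.80) and Epor (1.44), all with limma adjusted p of 0.00197 or less. Dendritic cell markers were higher for 2 and lower for 1 of 3 tested, megakaryocyte markers lower for 5 of 6, and mast cell and basophil markers lower for 4 of 5. Among all genes tested 37.9% were lower and 15% higher. The part of these lists in the result was not tested.

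The sorted cell type was checked in the same way. Of 10 stem cell markers, 9 were lower in the libraries labelled Reg1Δ/Δ and none higher, beside 37.9% lower and 15% higher among all genes tested. Their sum was 899 to 997 TPM against 195 to 574 TPM in set 1 and 372 to 553 TPM against 184 to 208 TPM in set 2. Fgd5 was under 0.5 TPM in every library labelled Reg1Δ/Δ and at 2.61 to 7.50 TPM in the controls. It passed the filter on low values through the controls alone, so the filter had a part in the count of 9. Ly6a, which encodes the sorting marker Sca-1, was the marker that was not called. Kit, which encodes the sorting marker c-Kit, was among the 9 called lower. All cathepsin differences above thus stand beside a lower level of most HSC markers.

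The genes most like Ctsh and Ctse, the cathepsins with the lowest and the highest difference on the log2(TPM + 1) scale, were taken by Pearson's r of log2(TPM + 1) over the 10 libraries after centring within sets, as a description of libraries that share the label difference. With a pseudocount of 0.1 and with coding transcripts alone, Ctsw had a lower difference (-4.91 and -3.59) than Ctsh (-3.95 and -2.89). The same held without replicate 1 of the set 1 libraries labelled Reg1Δ/Δ (-3.14 against -3.07) and without replicate 1 of the set 2 controls (-3.02 against -2.99). The 3 genes most like each of Ctsh and Ctse are given here. For Ctsh they were Clec7a (r = 0.988), the β-glucan receptor of myeloid cells, Mypopos (0.987) and Fcor (0.983). For Ctse they were Rhd (0.993), the Rh blood group protein of red cells, Nup85 (0.993), a nuclear pore protein, and Atp1b2 (0.992), a subunit of the sodium pump. Among the cathepsins themselves, on the same measure, Ctss went with Ctsc (0.988), Ctsw (0.986) and Ctsh (0.965), Ctse went with Ctsz (0.835) and against Ctsc (-0.83), and Ctsl had an r between -0.43 and 0.31 with each of the others.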

How the data were processed

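RNA of CD34- HSCs was sequenced in 5 control and 5 Reg1Δ/Δ libraries. Per the study's methods, reads were placed on GRCm38 by STAR, and Salmon 0.9.1 gave transcript TPM for GENCODE M17 models. The values the authors deposited are log2(TPM + 1) for each of 95912 transcripts. TPM sums to the same total in each library and keeps no depth, so depth is unknown and no counting interval is given. One header repeated the sample name of another Reg1Δ/Δ library of set 2; the values differed, and the sample was taken from the deposit record. Library sets were read from the titles.

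Values were turned back to TPM and summed per gene. Genes with TPM of at least 1 in at least 5 libraries (12874) were tested on log2(TPM + 1) with limma 3.58.1 (R 4.3.3), the library set as covariate, and Benjamini-Hochberg adjustment with a threshold of 0.05. A fold change on this scale understates the change of low genes. Single values were tested by exact two-sided permutation within sets. The fit was checked on simulated data, in which far fewer genes were changed than were called here. There, unchanged genes made up somewhat more of the calls than the threshold sets. Changed genes were also missed, more of them at the smaller change. These shares do not carry over to the real data, where calls just under the threshold are the least certain. Nothing in the labels ties a library to 1 animal, so p-values measure the spread between libraries.

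The named genes were the 10 cathepsins, Zc3h12a, every tested inhibitor and other cathepsin, and from each other list the 3 called genes with the largest difference, of which 1 hydrolase is not reported here. Cell type markers were taken as lists by counts and sums, and single markers were named after their values had been seen. The members and lists were chosen with earlier results of these data known. Alternatives covered scaling, filter, pseudocount, coding transcripts alone, the covariate, a replicate block, a trend in the variance, each set alone and leaving out each library. Promoters came from RefSeq (GRCm38.p6) and gene models from GENCODE M21. Ctsk, Csta2, Csta3, BC100530 and Arsb were not analysed here.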

Additional observations from a re-analysis of the deposited data

How the results depend on the processing

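Ctsc, Ctse, Ctss and Ctsw kept their direction and their call under every alternative that was fitted for them, with log2 differences of -1.65 to -1.13, 1.19 to 1.97, -3.56 to -2.37 and -4.91 to -2.56, and Ctsh lost its call in set 2 alone. With TPM of at least 1 in every sample, Ctsh and Ctsw could not be tested.

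The count of cathepsins called higher was 1 in place of 2 without a filter, without the library set covariate, and in set 1 and set 2 alone, and ranged from 1 to 2 when single libraries were left out, the lost call being that of Ctsz. The count called lower was 3 in place of 6 in set 2 alone, which has 4 libraries. Without the covariate Ctsa and Ctsb lost their calls too (limma adjusted p = 0.357 and 0.125).

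The direction of calls over all genes depended on the scaling. In place of 1933 higher and 4880 lower, quantile normalization gave 3861 and 2636 and median-of-ratios scaling 3973 and 3425, with the share of calls that were higher at 28.4%, 59.4% and 53.7%, and the median of all genes shifted by 0.40 and 0.30. Without the covariate the counts were 716 and 3052, and in set 2 alone 452 and 1581. Over the lists of lysosomal and partner genes, 11 higher and 60 lower became 26 and 32 with quantile normalization, 36 and 36 with median-of-ratios scaling, 6 and 37 without the covariate, and 5 and 20 in set 2 alone. Beyond the smaller number of samples in a set alone, the cause was not tested.

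Median-of-ratios scaling turned Ctsd to 0.29, Ctsl to 0.29, Cstb to 0.037 and Cst7 to 0.064, and quantile normalization turned Cst7 to 0.026. Ctsl was 0.15 in set 1 alone, ranged from -0.12 to 0.038 when single libraries were left out, and was 0.038 and 0.0030 without replicate 1 of the set 2 controls and without replicate 1 of the set 2 libraries labelled Reg1Δ/Δ. In set 2 alone Cst7 was 0.19 and Ctsg 0.17, and in set 1 alone Ctsg was -2.45 and called (limma adjusted p = 0.0483). The number of cathepsins with a coding share that differed between labels was 0 to 1 when single libraries were left out, the call being that of Ctsa without replicate 1 and that of Ctsc without replicate 2 of the set 2 controls (exact permutation p = 0.0167 over 60 assignments for both).

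With the replicate number as a block, 2 cathepsins were higher and 6 lower, and 1703 and 4545 of all genes. Samples with the same number did not deviate together: the correlations of their deviations were 0.03, 0.18 and 0.07 in set 1 and -0.05 in set 2, so the numbers were not taken to pair the libraries.

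TPM carries no counts, so differences of cathepsins near 0 TPM, such as Ctsw, have no counting error here. No group holds more than 3 libraries, and exact tests cannot go below 0.0167.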
